A study of Ovis aries with 9 samples.

Results

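Imprinted genes were examined in the ovaries of 9 adult ewes by RNA-Seq, with 1 library per ewe. The 10 names DLK1, MEG3, H19, PEG3, PEG10, MEST, PLAGL1, GRB10, SGCE and CDKN1C were looked up as gene symbols in the table of 27174 counted rows, and 8 of them had a row. The ewes were 3 Dorset sheep labelled wild type (D4, D5 and D6, the low-fecundity breed), 3 Small Tail Han sheep with the FecB genotype ++ (W6, W7 and W8) and 3 Small Tail Han sheep with the genotype BB (W1, W2 and W4). FecB is a mutation of BMPR1B, a receptor for bone morphogenetic proteins, and the Han ewes were genotyped from blood. All ewes had received a fluorogesterone sponge and then pregnant mare serum gonadotropin to synchronize estrus, and whole ovaries were removed once the following estrus had come spontaneously. Han BB and Han ++ differ in genotype within a breed, Han ++ and Dorset differ in breed, and Han BB and Dorset differ in both.

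An imprinted gene is transcribed mainly from the copy inherited from a given parent. DNA methylation laid down in the egg or the sperm tells the parental copies apart. Imprinted genes lie in clusters, and many of them act on growth and on the use of nutrients. Counts of reads per gene do not separate the parental copies, so the values below are total transcript levels and do not measure imprinting.

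Of the 8 names with a row, 7 passed edgeR's expression filter and were tested. MEG3 and H19 had no row under these symbols. The PLAGL1 row held between 0 and 9 reads in a library and was too low to test. In 4 libraries it had 0 reads, which allows between 0.135 and 0.276 CPM (counts scaled to library size), taking 3 reads as the limit and counting error only. The table has 3076 rows whose name carries a number after a point, and a second PLAGL1 row of this kind held 7284 reads, 99.7% of the reads on both PLAGL1 rows. PEG10 also had a second row, with 133 reads or 0.761% of its reads. The reference annotation names the gene beside DLK1 GTL2, an older name of MEG3, and gives it the gene number of the row LOC101123329, which held between 98 and 1078 reads, and a second row of it held 73. This match rests on an annotation of another assembly than the counts, and the row is called GTL2 on that basis alone. The second PLAGL1 row and the GTL2 row are described beside the others, but they were chosen after their values were seen and are not counted among the 7 tested members.

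Total counts ranged from 10803913 to 20992535 reads in a library. On the first principal component, which held 41.3% of the variance, W4 and D6 lay together at the same end (107 and 103) and D4 lay at the other (-118). W4 and D6 come from different groups, yet the rank correlation between them was 0.978, above that of either with any ewe of its own group (at most 0.931 and 0.949). D4, D5 and W1 were also closest to a ewe of another group (0.956, 0.962 and 0.978, against at most 0.933, 0.949 and 0.971 within their groups). Values without W4 and D6 are given where they matter. The tissue carried transcripts of ovarian cells, among them the follicle-stimulating hormone receptor FSHR (5.42 to 14.4 CPM), INHA (13.6 to 95.2 CPM), CYP17A1 (2.81 to 120 CPM) and the oocyte factor GDF9 (1.17 to 4.75 CPM). CYP19A1 and FOXL2, which define granulosa cells, and FIGLA of the oocyte had no row. BMPR1B itself had between 0 and 8 reads and was not tested. CPM are counts scaled to the total of the library with TMM factors, and are compared between libraries, not between genes, since no gene lengths were used.

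No tested imprinted gene passed the threshold (more than 1.5-fold in either direction with an adjusted p below 0.05) in any comparison by edgeR, DESeq2 or limma. Over the 28 tests of 7 genes in 4 comparisons, 3 had an unadjusted p under 0.05 by edgeR, and the lowest adjusted p was 0.831. Of the 7 members 0 were called in Han BB vs. Dorset, beside 0% of all 16871 tested genes. In Han ++ vs. Dorset 0 of 7 were called, beside 0.00593% of all genes, which is ROPN1L, a gene of ciliated cells named here after its values were seen. Likewise 0 of 7 were called in Han BB vs. Han ++, beside 0%, and in both Han groups vs. Dorset 0 of 7, beside 0%. DESeq2 called 0.146%, 0.417%, 0.0081% and 0.499% of the genes it gave an adjusted p in these comparisons, in the same order. limma called 0%, 0%, 0.0119% and 0%. At an unadjusted p under 0.05, edgeR gave 2 imprinted genes in Han BB vs. Dorset (DLK1 and PEG10), beside 4.99% of all genes, and 1 in Han BB vs. Han ++ (PEG10), beside 1.97%. It gave 0 in Han ++ vs. Dorset, beside 5.27%, and 0 in both Han groups vs. Dorset, beside 6.12%.

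The values of the 3 ewes of a group lay fully apart from those of another group for few of the 7 genes. It did for 2 genes in Han BB vs. Dorset, DLK1 and PEG10, both lower in Han BB, beside 8.79% of all tested genes in either direction and 4.52% lower. In Han ++ vs. Dorset it held for SGCE, lower in Han ++, beside 11.1% in either direction and 5.59% lower. For PEG10 it held in Han BB vs. Han ++, lower in Han BB, beside 9.38% and 4.59%, and with both Han groups against Dorset it held for 0 genes, beside 3.76%. The median log2 fold change of the 7 genes was -0.18 in Han BB vs. Dorset (-0.01 over all genes), -0.35 in Han ++ vs. Dorset (-0.06), 0.07 in Han BB vs. Han ++ (0.04) and -0.36 in both Han groups vs. Dorset (-0.04). Of all tested genes, 49.4% were higher in Han BB vs. Dorset, 44.1% in Han ++ vs. Dorset, 53.4% in Han BB vs. Han ++ and 45.5% in both Han groups vs. Dorset. Counts of listed genes by direction below stand beside these shares. The comparisons share groups, and the genes of a list were read in the same ewes, so their values are not independent. In whole ovary, fewer cells of a type and less RNA per cell cannot be told apart.

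**Figure D1:**
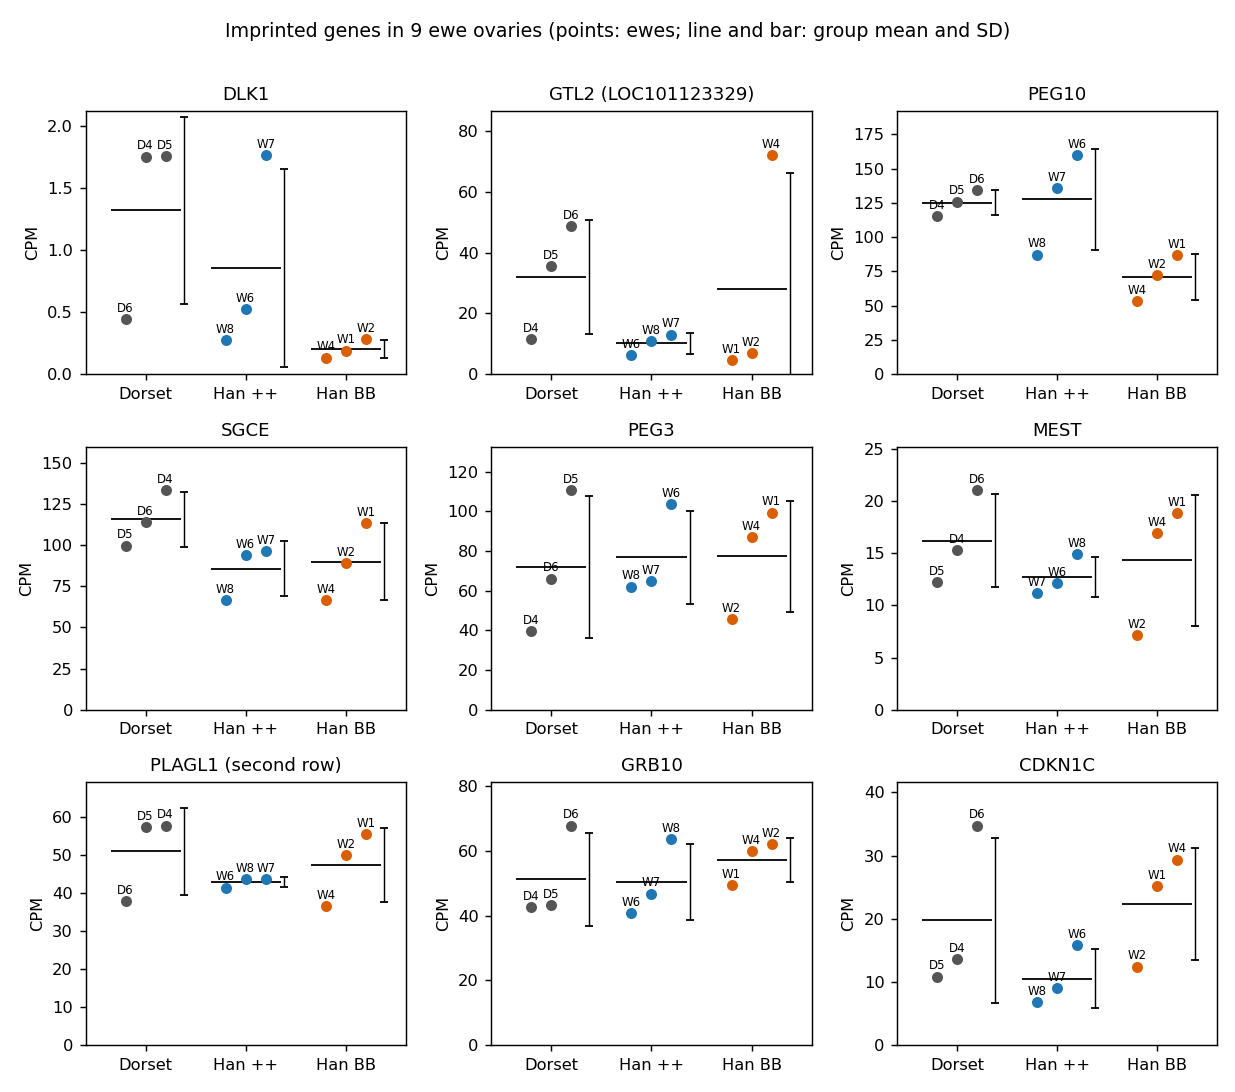
CPM of 9 imprinted gene rows in each ewe (points, named), by group, with the group mean (line) and SD over 3 ewes (bar, clipped at 0 for GTL2 in Han BB). The 3 Han BB ewes lie below the 3 Dorset ewes for DLK1 and below all other ewes for PEG10, and W4 stands alone in Han BB for GTL2.

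DLK1, a membrane protein related to the Notch ligands that holds back the differentiation of precursor cells and is transcribed from the paternal copy, was low in every ovary and lowest in Han BB. Its level was 1.75, 1.76 and 0.447 CPM in D4, D5 and D6, from 18, 39 and 8 reads. In Han ++ it was 0.525, 1.76 and 0.276 CPM in W6, W7 and W8, from 11, 39 and 3 reads. In Han BB it was 0.190, 0.280 and 0.134 CPM in W1, W2 and W4, from 4, 4 and 2 reads. All 3 Han BB ewes were below all Dorset ewes, but W2 in Han BB lay at the level of W8 in Han ++, so these groups overlapped. The group means were 1.32 ± 0.755 CPM in Dorset, 0.855 ± 0.797 CPM in Han ++ and 0.201 ± 0.0739 CPM in Han BB (SD, n = 3 ewes each).

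The log2 fold change of DLK1 was -2.67 (SE 1.03) in Han BB vs. Dorset, with an unadjusted p of 0.0251 and an adjusted p of 0.975 by edgeR. It was -2.07 (SE 1.01, unadjusted p = 0.0657) in Han BB vs. Han ++ and -0.59 (SE 0.94, unadjusted p = 0.539) in Han ++ vs. Dorset, by edgeR. The depth sets a wide margin at these levels. The exact 95% Poisson interval of the 2 reads in W4 runs from 0.242 to 7.22 reads, or 0.0162 to 0.483 CPM, and that of the 8 reads in D6 from 0.193 to 0.880 CPM. These intervals overlap, and the counts of these ewes were not tested against each other. Without W4 and D6 the log2 fold change in Han BB vs. Dorset was -2.88 (SE 1.31, unadjusted p = 0.0514, edgeR), and the Han BB vs. Han ++ value fell in size to -0.99 without W7.

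The row LOC101123329, matched by its gene number to GTL2, a maternally expressed noncoding RNA beside DLK1, varied widely between ewes of the same group. Its level was 11.6, 35.5 and 48.8 CPM in D4, D5 and D6, and 6.39, 13.1 and 10.96 CPM in W6, W7 and W8. In Han BB it was 4.70 and 6.86 CPM in W1 and W2 but 72.1 CPM in W4. The library W4 decided the direction against Han ++ and the size of the difference from Dorset. The log2 fold change in Han BB vs. Han ++ was 1.46 (SE 0.90, unadjusted p = 0.134) and turned to -0.82 without W4. Against Dorset the Han BB value was -0.20 (SE 0.88) with all ewes and -2.51 (SE 0.58, unadjusted p = 0.00109) without W4, a value that leaves out the ewe chosen as standing apart. In Han ++ vs. Dorset, which does not contain W4, it was -1.66 (SE 0.90, unadjusted p = 0.0936), and none of these passed the adjusted threshold by edgeR.

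The 3 other imprinted genes of the DLK1 cluster with a row had few reads. RTL1, a retrotransposon-derived gene expressed from the paternal copy, held between 0 and 31 reads, and DIO3, which inactivates thyroid hormone, between 0 and 16. BEGAIN, which neighbours DLK1 on the other side, had 0 reads in all 9 libraries. RTL1 had its highest counts in D4 and W8 (31 and 29 reads) and at most 16 reads in the other ewes. Of 11 genes listed for this cluster 7 had a row and 5 were tested, 0 of them called, with a median log2 fold change of -0.18 in Han BB vs. Dorset. Besides DLK1 and RTL1 the tested genes were WDR25, WARS and PPP2R5C, with group means of 2.45 to 3.16, 54.9 to 72.3 and 87.1 to 132 CPM.

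**Figure D2:**
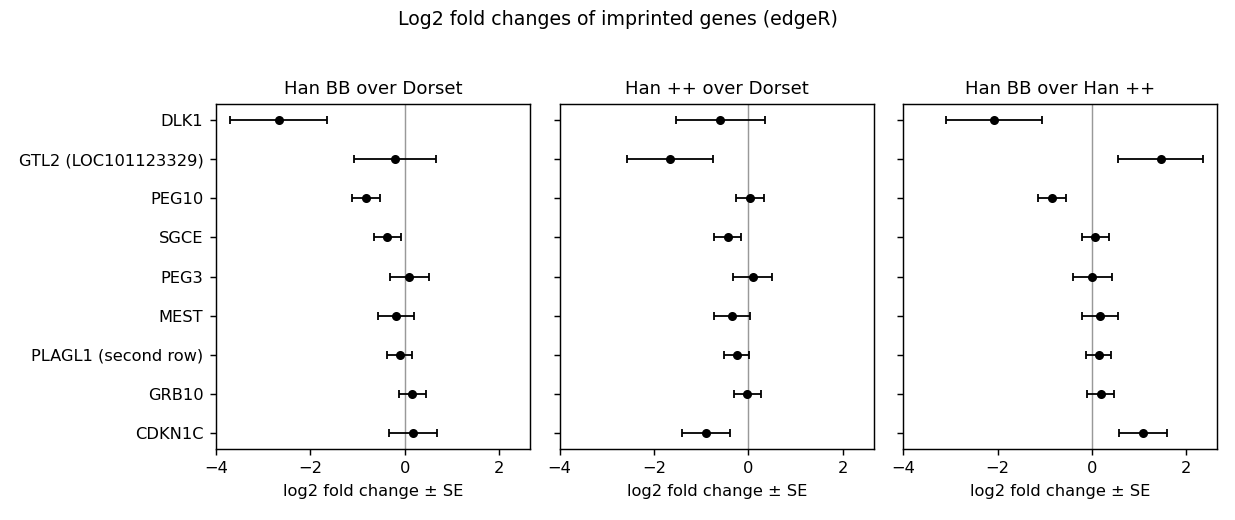
Log2 fold changes by edgeR with standard errors (bars) for 9 imprinted gene rows in the 3 pairwise comparisons of 3 against 3 ewes, where 0 is no difference. DLK1 at -2.67 and -2.07 has the widest bars among the tested members, and PEG10 lies at -0.82 and -0.85 in the comparisons with Han BB and at 0.03 in Han ++ over Dorset.

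PEG10, a paternally expressed gene derived from a retrotransposon and known for its role in the placenta, was lower in Han BB than in the other groups. Its level was 116, 126 and 134 CPM in D4, D5 and D6. In Han ++ it was 160, 136 and 87.2 CPM in W6, W7 and W8, and in Han BB it was 86.7, 72.4 and 53.2 CPM in W1, W2 and W4. All 3 Han BB ewes were below all other ewes, with W1 and W8 nearly equal at the border, and the Dorset ewes were the most alike. The means were 125 ± 9.31 CPM in Dorset, 128 ± 37.0 CPM in Han ++ and 70.8 ± 16.8 CPM in Han BB (SD, n = 3 ewes each).

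In Han BB the PEG10 level was 1.77-fold lower than in Dorset (log2 -0.82, SE 0.30, unadjusted p = 0.0193, adjusted p = 0.975) and 1.80-fold lower than in Han ++ (log2 -0.85, SE 0.30, unadjusted p = 0.0163, adjusted p = 0.999) by edgeR. Between Han ++ and Dorset the log2 fold change was 0.03 (SE 0.30). PEG10 kept its direction in Han BB under each of the 19 alternatives of the processing, from -0.999 to -0.61 against Dorset and from -1.07 to -0.65 against Han ++. The alternative without a fold threshold leaves log2 fold changes as they are, so it could not change a direction. Since all Han BB ewes lay below all other ewes, leaving out ewes could hardly change it either. The ranges from those runs describe size alone. Without W4 and D6 the values were -0.61 (unadjusted p = 0.0905) and -0.69 (unadjusted p = 0.0441) by edgeR. The lowest adjusted p over these alternatives was 0.298 against Dorset and 0.646 against Han ++.

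Markers of granulosa cells, the somatic cells around the oocyte, also had lower levels in Han BB. All 8 tested granulosa markers had a lower level in Han BB than in Dorset, with a median log2 fold change of -1.12, and all 8 were lower than in Han ++, with a median of -0.68. Their summed level ran from 181 to 386 CPM in Dorset, from 150 to 341 CPM in Han ++ and from 103 to 213 CPM in Han BB, so the groups overlapped, and 0 markers were called. The summed level of 7 stroma markers was 10921 to 15890 CPM in Han BB, below the 16126 to 20777 CPM of Han ++. In Dorset it was 9310 to 21211 CPM, and NR2F2 had no row. Taken singly, 5 of these 7 markers were lower in Han BB than in Han ++ and 2 were higher (median -0.08). Other lists also differed in Han BB vs. Dorset. Of 8 theca markers 6 were lower (median -0.72), of 6 smooth muscle markers 5 were lower (median -0.49), and all 8 markers of ciliated oviduct cells were higher (median 1.22), with overlapping sums. All 7 markers of the ovarian surface epithelium were higher as well (median 0.46), and of 7 hilus nerve and adipose markers 3 were higher and 4 lower (median -1.10). The sums of these lists overlapped too. The summed level of oviduct secretory markers, 854 to 1125 CPM in Han BB, lay above the 379 to 722 CPM of Dorset. Of the 4 tested secretory markers, though, 2 were higher and 2 lower (median 0.41). The part of these cell types in the DLK1 and PEG10 values was not tested.

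SGCE, the epsilon subunit of the sarcoglycan complex in the cell membrane, lies beside PEG10 and is expressed from the paternal copy as well. Its level was 133, 99.8 and 114 CPM in D4, D5 and D6, and 94.0, 96.7 and 66.6 CPM in W6, W7 and W8. In Han BB it was 114, 89.4 and 66.8 CPM in W1, W2 and W4. The 3 Han ++ ewes lay below the 3 Dorset ewes, with W7 close to D5, while Han BB overlapped both groups. The log2 fold change was -0.43 (SE 0.29, unadjusted p = 0.159) in Han ++ vs. Dorset, -0.36 (SE 0.29) in Han BB vs. Dorset and 0.07 (SE 0.29) in Han BB vs. Han ++ by edgeR. Summed markers of 3 other cell types also kept Han ++ apart from Dorset, with all 3 sums higher in Han ++: ovarian surface epithelium (356 to 441 against 168 to 352 CPM), oviduct secretory cells (783 to 1850 against 379 to 722 CPM), and hilus nerve and adipose tissue (60.2 to 200.3 against 30.0 to 50.9 CPM). Gene by gene, 7 of 7 tested surface epithelium markers and 3 of 4 tested secretory markers were higher. Of the 7 hilus nerve and adipose markers only 3 were higher and 4 were lower, with a median log2 fold change of -1.15. The part of these cell types in the SGCE value was not tested.

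Set against each other within a library, PEG10 and SGCE differed in their balance between the groups. The pair was chosen after these values were seen, so they are a description with no test. The ratio of PEG10 reads to SGCE reads was 0.763, 0.810 and 0.798 in W1, W2 and W4 of Han BB. It was 0.866, 1.26 and 1.18 in D4, D5 and D6 of Dorset, and 1.70, 1.40 and 1.31 in W6, W7 and W8 of Han ++. The 3 groups did not overlap, although D4 lay close to Han BB and W8 close to D5. The means were 0.790 ± 0.0243 in Han BB, 1.101 ± 0.208 in Dorset and 1.47 ± 0.204 in Han ++ (SD, n = 3 ewes each).

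On the log2 scale the ratio differed by -0.46 (SE 0.17) in Han BB vs. Dorset, by 0.43 (SE 0.20) in Han ++ vs. Dorset and by -0.89 (SE 0.12) in Han BB vs. Han ++. Leaving out each ewe of a comparison in turn moved these differences between -0.63 and -0.35, between 0.26 and 0.54, and between -0.97 and -0.78. Since the groups did not overlap, no sign could change, and these ranges describe size alone. The ratio needs no scaling between libraries, but it depends on the lengths of the transcripts and on how reads are split where genes overlap, so its distance from 1 has no meaning of its own. Of the 21 pairs of tested members it was the 1 pair that kept all 3 groups apart, or 4.76%. Among 11292 pairs of tested genes that are neighbours in the reference annotation, 57 did so, or 0.505%. These sets are unlike, since most of the 21 pairs are not neighbours and the pair was picked from them after its values were seen. The shares therefore do not show how rare the pair is.

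**Figure D3:**
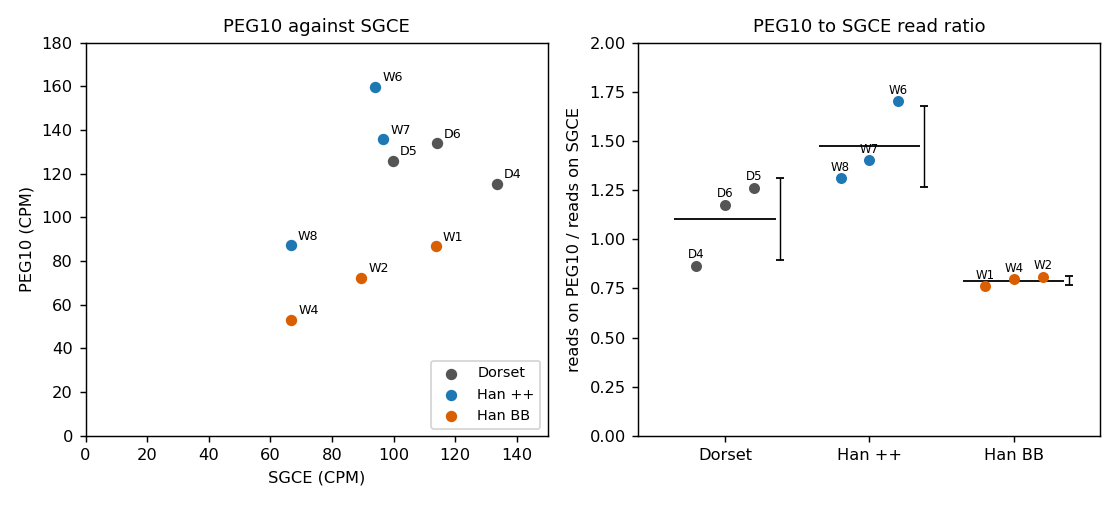
Left, PEG10 against SGCE in CPM for each ewe (points, coloured by group). Right, the ratio of PEG10 reads to SGCE reads in each ewe with the group mean (line) and SD over 3 ewes (bar): Han BB lies between 0.763 and 0.810, Dorset between 0.866 and 1.26, and Han ++ between 1.31 and 1.70.

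Of the 11 genes listed for the PEG10 and SGCE cluster, all 11 had a row and 9 were tested, with 0 called. Their median log2 fold change was -0.36 in Han BB vs. Dorset, 0.16 in Han ++ vs. Dorset and 0.05 in Han BB vs. Han ++. CASD1, which lies on the far side of SGCE and modifies sialic acids, had a log2 fold change of 0.58 in Han BB vs. Dorset (SE 0.44, unadjusted p = 0.215 by edgeR), and the groups overlapped. ASB4, a component of ubiquitin ligases, had a log2 fold change of -1.76 in both Han groups vs. Dorset (SE 0.75, unadjusted p = 0.0384, adjusted p = 0.768 by edgeR). D4 had the most ASB4, at 4.67 CPM, while the other 8 ewes ranged up to 1.12 CPM.

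PEG3, a paternally expressed zinc finger protein with a role in growth and maternal behavior, had nearly equal means in the 3 groups and a wide spread within each. Its level was 39.4, 111 and 66.1 CPM in D4, D5 and D6, 104, 64.8 and 62.0 CPM in W6, W7 and W8, and 99.4, 45.7 and 86.8 CPM in W1, W2 and W4. Each group spanned much of the range of the others. The means were 72.0 ± 36.0, 76.8 ± 23.3 and 77.3 ± 28.1 CPM in Dorset, Han ++ and Han BB, and the log2 fold changes lay between 0.01 and 0.10 (SE 0.42 for each pairwise comparison). The sign of each changed with the processing. USP29 and ZIM2, which neighbour PEG3 in other mammals, held at most 25 and 27 reads in a library.

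MEST, a paternally expressed member of the hydrolase family known for its effect on fat and body size, also overlapped between all groups. It was 15.3, 12.3 and 21.1 CPM in D4, D5 and D6, 12.1, 11.2 and 14.9 CPM in W6, W7 and W8, and 18.9, 7.14 and 16.9 CPM in W1, W2 and W4. Han ++ was the most uniform group and W2 was the lowest ewe. The log2 fold changes ran from -0.35 in Han ++ vs. Dorset (SE 0.38) to 0.17 in Han BB vs. Han ++ (SE 0.38). COPG2, a coat protein gene beside MEST, had a log2 fold change of 0.43 in Han BB vs. Dorset, against -0.18 for MEST.

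PLAGL1, a paternally expressed zinc finger transcription factor that restrains cell growth, was among the most even of these genes. On its second row it was 57.8, 57.4 and 37.9 CPM in D4, D5 and D6, 41.5, 43.7 and 43.7 CPM in W6, W7 and W8, and 55.5, 50.1 and 36.5 CPM in W1, W2 and W4. D6 and W4 were the lowest ewes of their groups and of all ewes. The log2 fold changes were -0.11 (SE 0.27) in Han BB vs. Dorset, -0.25 (SE 0.27) in Han ++ vs. Dorset and 0.14 (SE 0.27) in Han BB vs. Han ++ by edgeR. Of 7 Pearson correlations of this row with the tested members over the 9 ewes, which ran from -0.52 to 0.55, the lowest Benjamini-Hochberg adjusted p was 0.498 by an exact permutation test, and for Spearman's rho it was 0.472.

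GRB10, an adaptor that binds the insulin receptor and dampens its signal and is expressed from the maternal copy in most tissues, had the narrowest range of the 7 tested members. It was 42.6, 43.1 and 67.8 CPM in D4, D5 and D6, 40.7, 46.8 and 63.6 CPM in W6, W7 and W8, and 49.3, 62.1 and 60.0 CPM in W1, W2 and W4. The highest ewes of the 3 groups were close to each other. Its log2 fold changes were 0.16, -0.02 and 0.18 (SE 0.28 each) in Han BB vs. Dorset, Han ++ vs. Dorset and Han BB vs. Han ++. Of 12 genes listed for insulin and IGF signalling 8 were tested and 0 called, with median log2 fold changes of -0.14, -0.10 and -0.16 in the same order.

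IKZF1, a lymphoid transcription factor on the list of genes near GRB10, was the gene of that list with an unadjusted p under 0.05. Its mean was 7.12 CPM in Dorset, 12.9 CPM in Han ++ and 12.1 CPM in Han BB, with all Han ewes above all Dorset ewes. The log2 fold change was 0.86 (SE 0.30, unadjusted p = 0.0162, adjusted p = 0.829) in Han ++ vs. Dorset and 0.76 (SE 0.30, unadjusted p = 0.0280, adjusted p = 0.975) in Han BB vs. Dorset by edgeR. The summed level of 6 immune markers with a row was 138 to 250 CPM in Dorset, 192 to 311 CPM in Han ++ and 235 to 351 CPM in Han BB. The part of immune cells in the IKZF1 value was not tested.

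CDKN1C, the cyclin-dependent kinase inhibitor p57 and a maternally expressed brake on the cell cycle, was the member with the highest level in Han BB relative to Han ++. It was 13.6, 10.8 and 34.7 CPM in D4, D5 and D6, 15.8, 8.96 and 6.82 CPM in W6, W7 and W8, and 25.2, 12.4 and 29.4 CPM in W1, W2 and W4. D6 and W4 were the highest ewes, and all groups overlapped. The log2 fold change was 1.08 (SE 0.51, unadjusted p = 0.0573) in Han BB vs. Han ++, -0.90 (SE 0.51, unadjusted p = 0.103) in Han ++ vs. Dorset and 0.18 (SE 0.50) in Han BB vs. Dorset by edgeR. Without W4 and D6 the first was 0.82 (unadjusted p = 0.0717) and the second was -0.20. Without D6 the value in Han BB vs. Dorset was 0.89.

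Other genes of the cell cycle were set beside CDKN1C. Of 15 tested CDK inhibitors, cyclins and kinases, CDKN1C included, 13 were lower in Han BB than in Dorset, with a median log2 fold change of -0.26 and 0 called. Against Han ++ 7 were higher and 8 lower in Han BB, with a median of -0.39 and 0 called. CCND1, a cyclin of the early cell cycle, averaged 1.93 CPM over the Han BB ewes and 5.95 CPM over the Dorset ewes with no overlap (log2 -1.63, SE 0.54, unadjusted p = 0.0119, adjusted p = 0.970 by edgeR). CDKN2B, an inhibitor of the cyclin D kinases, averaged 0.177 CPM over the Han BB ewes and 0.997 CPM over the Han ++ ewes (log2 -2.48, SE 1.09, unadjusted p = 0.0435, adjusted p = 0.999 by edgeR). Of 12 genes listed for the cluster of CDKN1C and KCNQ1, 7 were tested. CARS, a transfer RNA synthetase in that list, averaged 33.5 CPM over the Han ++ ewes and 60.4 CPM over the Dorset ewes (log2 -0.85, SE 0.32, unadjusted p = 0.0209, adjusted p = 0.874 by edgeR).

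Among themselves the members differed most in how evenly they were expressed over the 9 ewes. The highest ewe had 13.2 times the lowest for DLK1, 5.10 times for CDKN1C, 3.00 times for PEG10, 2.95 times for MEST and 2.81 times for PEG3. The same measure was 2.004 for SGCE, 1.66 for GRB10 and 1.58 for the second PLAGL1 row, and 15.3 for GTL2. The median over the 15582 tested genes with reads in every library was 3.00. DLK1, with few reads, and CDKN1C and GTL2, high in W4 and D6, lay above it, and SGCE, GRB10 and PLAGL1 below it.

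Correlations between the 7 tested members over ewes had mixed signs. Of the 21 pairs 12 had a positive and 9 a negative Pearson correlation of log2 CPM, with a median r of 0.13 and a range from -0.65 to 0.71. None passed an adjusted p of 0.05 by a two-sided exact permutation test, and 1 had an unadjusted p under 0.05. This was DLK1 with PEG10, with r = 0.71 (exact permutation p = 0.0339, adjusted p = 0.483) and a Spearman rho of 0.77 (exact permutation p = 0.0214, adjusted p = 0.449) over 9 ewes. Its r was 0.67 without D5 and W7, the ewes farthest from the median of DLK1, and 0.67 without W4 and D6. Within groups, after subtracting each group mean, it was 0.32. PEG10 and SGCE had r = 0.57 over all ewes (exact permutation p = 0.110, adjusted p = 0.483) and rho = 0.35 (exact permutation p = 0.359, adjusted p = 0.691). The r of that pair was 0.81 within groups, 0.25 without W4 and D6 and 0.23 without W2 and W4, the ewes farthest from the median of PEG10.

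The genes whose log2 CPM followed each member most closely over the 9 libraries, out of 16870 others, were not imprinted genes of the lists. For DLK1 they were OSBPL10 (r = 0.93), SLC7A2 and GYG2, and for PEG3 they were ANTXR1.1 (r = 0.96), ALDH1L1 and GFI1. For PEG10 they were LOC101108519 (r = 0.91), TNNI3 and TMEM8B, and for SGCE they were AES (r = 0.95), HMG20B and NOB1. MEST was nearest to LOC101113775 (r = 0.95), STX6 and DLG2, and GRB10 to XLOC_016417 (r = 0.93), GDAP2 and ADPGK. NMI (r = 0.96) and PAICS were among the nearest to CDKN1C, and 59 genes exceeded an r of 0.9 with it, against 2 to 6 genes for each other tested member. With 9 libraries and this many genes, such values describe these libraries and share their depth and composition.

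Outside the 10 names, 42 further imprinted genes were listed, of which 34 had a row, 27 were tested and 0 were called in any comparison. Their median log2 fold change was -0.15 in Han BB vs. Dorset, -0.09 in Han ++ vs. Dorset and 0.05 in Han BB vs. Han ++. Over all tested genes it was -0.01, -0.06 and 0.04 in the same order. IGF2, the growth factor of the H19 cluster, was 53.6, 101 and 39.4 CPM in D4, D5 and D6, 36.6, 59.8 and 61.0 CPM in W6, W7 and W8, and 54.0, 30.0 and 29.6 CPM in W1, W2 and W4. The 3 groups overlapped, and its log2 fold change in Han BB vs. Dorset was -0.77 (SE 0.40, unadjusted p = 0.0788 by edgeR).

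**Figure D4:**
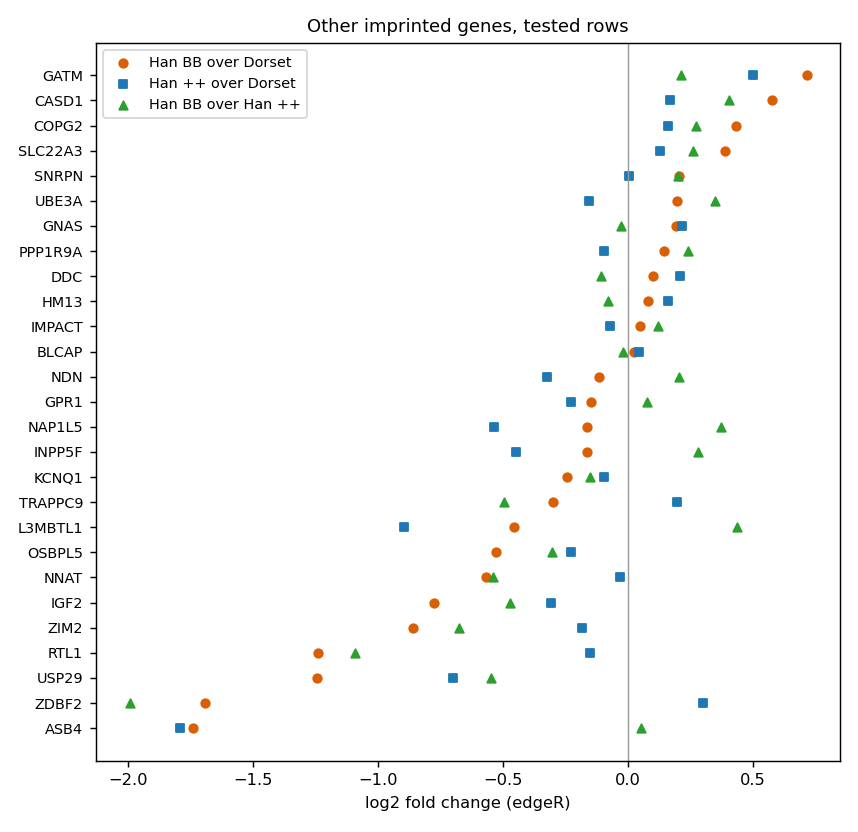
Log2 fold changes by edgeR of the 27 further imprinted genes that were tested, sorted by Han BB over Dorset, in the 3 pairwise comparisons (symbols), where 0 is no difference. Most points lie near 0, and the extremes are ASB4 at -1.74 and GATM at 0.72 in Han BB over Dorset and ZDBF2 at -1.99 in Han BB over Han ++.

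In both comparisons with Dorset, GATM, which makes the precursor of creatine, had the highest log2 fold change of these genes, 0.72 (SE 0.34, unadjusted p = 0.0613) in Han BB and 0.50 (SE 0.34, unadjusted p = 0.171) in Han ++. ASB4 had the lowest, -1.74 (SE 0.92) and -1.79 (SE 0.92). In Han BB vs. Han ++ the highest was L3MBTL1, a chromatin protein, at 0.44 (SE 0.43), and the lowest was ZDBF2 at -1.99 (SE 1.76), which held between 0 and 32 reads. None of these had an unadjusted p under 0.05 by edgeR.

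Of 14 genes listed for keeping or erasing the methylation of imprints, 13 were tested and 0 called, with a median log2 fold change of -0.11 in Han BB vs. Dorset, -0.18 in Han ++ vs. Dorset and 0.11 in Han BB vs. Han ++. UHRF1, which brings DNMT1 to newly copied DNA, averaged 10.6 CPM over the Han BB ewes and 21.2 CPM over the Dorset ewes (log2 -1.01, SE 0.42, unadjusted p = 0.0336, adjusted p = 0.975 by edgeR), and the groups overlapped. ZNF202, a zinc finger protein on the same list, had a mean of 11.7 CPM in Han ++ and 19.4 CPM in Dorset with no overlap (log2 -0.72, SE 0.25, unadjusted p = 0.0145, adjusted p = 0.803 by edgeR).

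The pathways in which DLK1 and SGCE act were also measured. Of 15 Notch receptors, ligands and targets 11 were tested, DLK1 included, and all 11 were lower in Han BB than in Han ++, with a median log2 fold change of -0.32 and 0 called. Over all tested genes 53.4% were higher in Han BB vs. Han ++. Against Dorset 6 of the 11 Notch genes were lower in Han BB, with a median of -0.30. Of 11 sarcoglycan and dystrophin complex genes 9 were tested, SGCE included, and 8 were lower in Han BB than in Dorset and 7 lower in Han ++ than in Dorset, with medians of -0.34 and -0.19 and 0 called.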

How the data were processed

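The authors aligned RNA-Seq reads of 9 ovaries to the sheep genome Oar_v3.1 with TopHat (both also in the submitters' processing notes), used the uniquely mapped reads alone and deposited unnormalized counts for each gene in each library. Which program counted them, with what strand setting and in which versions is not given in the sources used here. Counts of overlapping or near-identical genes are therefore uncertain. The library kit is named in 2 ways, as a stranded total RNA kit in the methods and as another TruSeq kit in the labels. Counts were fitted in R 4.3.3 with edgeR 4.0.16 (quasi-likelihood F-test, TMM, expression filter by group, all 9 libraries and 3 groups in 1 fit), and 16871 of 27174 rows were tested. The p values were adjusted by Benjamini-Hochberg across every tested row, except for correlations, which were adjusted over their pairs. A gene was called when it differed more than 1.5-fold in either direction with an adjusted p below 0.05, the study's thresholds. The edgeR p values set a difference between groups against the spread between ewes. That spread includes counting error and was estimated with sharing across genes. Log2 CPM for correlations had a prior count of 0.5. DESeq2 1.42.0 and limma 3.58.1 (voom with quality weights) were alternatives. The fit was tested on simulated data, and figures were drawn with matplotlib 3.10.9.

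The members and gene lists were chosen with earlier results of these data known. Named were all members, listed genes with an unadjusted p under 0.05, the highest and lowest of the further imprinted genes in each pairwise comparison, and for each tested member the 3 genes of highest r, of which 1 is not reported here. Other named genes are neighbours or tissue markers chosen after their values were seen. Gene names and neighbours were taken from an annotation of the assembly ARS-UI_Ramb_v3.0, whose positions were not used. No sequences are shown.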

Additional observations from a re-analysis of the deposited data

How the results depend on the processing

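With 3 ewes per group, changes smaller than the spread between ewes could not be called, and DLK1, with 2 to 39 reads, is further limited by depth. No member was called under any of the 19 alternatives, which were DESeq2 and its size factors, limma, no filter or 1 CPM in 3 libraries, fits of the compared groups alone (where DLK1 was filtered out of both comparisons with Han BB), no fold threshold, each ewe left out in turn, W4 and D6 left out or given a term, and, chosen after the data had been seen, rows of a symbol summed. The number of correlated pairs stayed at 0 without W4 and D6, with other size factors and with a prior count of 2. Of 523 alternative log2 fold changes of the 7 tested members 478 kept their direction and 45 reversed, all from small values (at most 0.363 in size). Those without a fold threshold equal the main values by design and are among the ones that kept their direction. Where the groups of a comparison did not overlap, leaving out ewes could hardly reverse a direction either. No paired analysis was possible because the labels give no replicate numbers shared between groups.

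The cause of each reversal was not tested. For PEG3, limma gave -0.063, -0.017, -0.046 and -0.040 in Han BB vs. Dorset, Han ++ vs. Dorset, Han BB vs. Han ++ and both Han groups vs. Dorset, and without W4 and D6 the values were -0.071, -0.092 and -0.025 in the same order, Han ++ vs. Dorset left aside. In Han BB vs. Han ++ PEG3 was also -0.0034 with the 1 CPM filter, -0.00012 in the fit of the compared groups and -0.0067 with the term. In Han ++ vs. Dorset PEG10 was -0.045 with the term, and GRB10 was 0.23 without W4 and D6 and 0.13 with the term. CDKN1C in both Han groups vs. Dorset was 0.035 by limma and 0.21 without W4 and D6. GTL2 in Han BB vs. Han ++ was -0.54 by limma, -0.82 without W4 and D6 and -0.31 with the term. Leaving out each ewe in turn gave these ranges where a sign changed. In Han BB vs. Dorset they were -0.19 to 0.55 for PEG3, -0.41 to 0.15 for MEST, -0.12 to 0.89 for CDKN1C, -0.27 to 0.033 for the second PLAGL1 row and -2.51 to 0.30 for GTL2. In Han ++ vs. Dorset they were -0.21 to 0.54 for PEG3, -0.18 to 0.26 for PEG10 and -0.20 to 0.23 for GRB10. In Han BB vs. Han ++ they were -0.21 to 0.31 for PEG3, -0.068 to 0.50 for MEST, -0.15 to 0.23 for SGCE and -0.82 to 1.98 for GTL2. In both Han groups vs. Dorset they were -0.20 to 0.55 for PEG3, -0.054 to 0.33 for GRB10 and -0.66 to 0.35 for CDKN1C.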
